A study of Mus musculus with 3 samples.

Results

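The C/EBP genes encode CCAAT/enhancer-binding proteins, and 6 genes were selected by symbol: Cebpa, Cebpb, Cebpd, Cebpe, Cebpg and Cebpz. They are 6 of the 55536 annotated gene rows and carry 15 annotated transcripts. All 6 were found in the gene table and in both transcript tables. Of these, 5 reached a mean of at least 10 counts per library, and Cebpe did not.

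Total RNA was sequenced after ribosomal RNA depletion from the chromatin fraction of bone marrow-derived macrophages (BMDM) of C57BL/6J mice. Such cells are grown from marrow precursors in culture, and the chromatin fraction is rich in RNA still attached to its template, so a level here is not that of finished cytoplasmic mRNA. Every library is of 1 condition. Cells were exposed for 12 h to Lipid A at 100 ng/ml, washed and kept without it for 12 h, and exposed for 120 min to the same dose. Lipid A is the lipid anchor of bacterial lipopolysaccharide and acts through the receptor TLR4. The 3 libraries are labelled biological replicates 1, 2 and 3 and were made from 1 µg, 250 ng and 500 ng of RNA. Genotype changes are not named in the labels, sex and age were not collected, and all libraries carry the same donor code, so whether each is a separate animal is not known. Each SD and p-value therefore covers no more than the variation among these samples, which could be technical. Untreated cells and cells stimulated a single time are not analysed here, so no value below is a response to Lipid A.

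C/EBP proteins of the bZIP class bind DNA as dimers held together by a leucine zipper, with themselves, with one another or with other bZIP factors. C/EBP-alpha directs myeloid precursors towards granulocytes and monocytes, C/EBP-epsilon acts late in granulocyte maturation, and C/EBP-beta and C/EBP-delta act on cytokine and acute-phase genes in activated macrophages. C/EBP-gamma has the zipper but lacks the activation domains of the others, while Cebpz is named for CCAAT binding but encodes a nucleolar protein of ribosome assembly outside the bZIP class.

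Replicate 1 stood apart from the other libraries. It held 10293545 expected counts against 17820066 and 17548564 in replicates 2 and 3, with 9.90%, 15.6% and 18.2% of them in the ribosomal RNA locus. Across 11026 protein-coding genes, log2 CPM (counts scaled to the library total) correlated at Pearson r = 0.980 for replicates 2 and 3, and at 0.958 and 0.955 for replicate 1 with replicates 2 and 3, as a description over genes that share libraries. Macrophage markers were all present, with 12 of 12 at a TPM (transcript abundance per length, scaled to a fixed total) of at least 1 in every library and summed TPM of 1573, 1530 and 1062. Of neutrophil and granulocyte precursor markers, 0 of 12 reached that level, and their summed TPM was 0.54, 1.30 and 0.88. Nor did any marker of mast cells and related granulocytes (0 of 8), dendritic cells (0 of 6), hepatocytes (0 of 6) or T and B cells (0 of 6), and 1 of 5 erythroid and 2 of 10 fibroblast and adipocyte markers did. Markers also differed in replicate 1. Of 12 macrophage markers, 1 lay at least 2-fold above both other libraries and 0 below, beside 5.57% and 3.68% of all genes with at least 10 mean counts. The 1 was Cd68, at 3.15-fold. Collagen genes of fibroblasts were near 0 there, with 0, 32 and 50 counts of Col1a1, 0, 17 and 34 of Col1a2, and 1, 13 and 29 of Col3a1. Among 6 fibroblast and adipocyte markers with at least 10 mean counts, these 3 lay below and 1, Fabp4, lay above at 2.66-fold. The summed TPM of that list was 55.5, 44.8 and 59.2, of which Lpl alone had 42.75, 36.72 and 52.32. The part of fibroblasts or adipocytes in the ratios below was not tested.

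Most C/EBP genes are short and lie close to or inside other genes (mm10, GENCODE M21). Cebpb is a single exon of 1504 bases at chr2:167688915-167690418 on the plus strand, and 60.4% of it lies within the span of Tmem189 on the opposite strand, 20.7% within Tmem189 exons. Cebpd, at chr16:15887286-15891031 on the plus strand, has a single-exon coding transcript of 3746 bases that overlaps Spidr on the opposite strand over 48.3% of its bases, 15.0% in Spidr exons. Cebpa (chr7:35119293-35121928, plus strand) and Cebpg (chr7:35046422-35056573, minus strand) are neighbours that point away from each other, 62720 bases apart. Cebpe lies at chr14:54710360-54712174 and Cebpz at chr17:78919006-78937066, both on the minus strand. Ndufaf7 starts 70 bases upstream of Cebpz on the other strand. Cebpzos overlaps the far end of Cebpz, with 21.7% of Cebpz exon bases within the span of Cebpzos and 3.67% within Cebpzos exons.

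RefSeq start sites were at hand for 3 of the 6 genes, and the 250 bases before each (GRCm38.p6, 5′ to 3′ on the gene's own strand) are shown for all 3. Capitals mark matches to the motifs CCAAT (the CCAAT box), TATAAA (the TATA box), TGACG (the cAMP response element half-site), TTNNGNAA (a C/EBP-like site) and GGGCGG (the GC box), searched on both strands.
Cebpb: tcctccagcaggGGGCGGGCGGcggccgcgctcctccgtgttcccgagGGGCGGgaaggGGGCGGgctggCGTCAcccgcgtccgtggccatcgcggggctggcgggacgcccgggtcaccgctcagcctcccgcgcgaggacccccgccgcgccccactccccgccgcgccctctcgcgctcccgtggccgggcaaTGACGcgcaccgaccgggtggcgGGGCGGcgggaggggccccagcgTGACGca
Cebpa: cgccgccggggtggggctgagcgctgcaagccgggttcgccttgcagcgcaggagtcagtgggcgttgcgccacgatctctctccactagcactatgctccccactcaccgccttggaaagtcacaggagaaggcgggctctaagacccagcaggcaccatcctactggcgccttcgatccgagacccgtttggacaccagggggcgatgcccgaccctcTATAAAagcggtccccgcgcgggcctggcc
Cebpg: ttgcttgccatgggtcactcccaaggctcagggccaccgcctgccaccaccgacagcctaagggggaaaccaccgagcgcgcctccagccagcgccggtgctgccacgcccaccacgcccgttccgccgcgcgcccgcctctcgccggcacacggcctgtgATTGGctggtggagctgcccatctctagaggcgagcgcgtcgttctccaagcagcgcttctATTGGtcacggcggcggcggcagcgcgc
The Cebpb stretch, chr2:167688665-167688914, is 81.6% G and C and holds 5 GGGCGG matches, of which the 2 farthest from the start overlap, and 3 TGACG matches, one of them on the reverse strand. The Cebpa stretch, chr7:35119043-35119292, is 66.4% G and C and holds 1 TATAAA from 30 to 25 bases before the start. The Cebpg stretch, chr7:35056567-35056816 on the minus strand, is 70.8% G and C and holds 2 CCAAT matches, both on the reverse strand and so printed as ATTGG. Among 32817 RefSeq promoter stretches of this length, 32.7% hold GGGCGG, 17.8% TGACG, 12.4% TATAAA, 33.8% CCAAT and 36.8% TTNNGNAA. A match describes letters only, and TTNNGNAA was not found in these 3 stretches.

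Cebpb, an activator of inflammatory genes, was the member that differed most between libraries. Its TPM, a level per transcript length, was 27.95 in replicate 1, 9.64 in replicate 2 and 9.36 in replicate 3, from 464, 187 and 202 expected counts (mean TPM 15.7 ± 10.7, SD, n = 3). Replicates 2 and 3 were close to each other and replicate 1 lay far above both. The estimation intervals that the authors deposited for each library, 23.9 to 28.9, 7.59 to 10.2 and 7.52 to 10.01 TPM, did not overlap between replicate 1 and the others.

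On the scale of CPM normalised by TMM, which corrects for library depth and composition, Cebpb stood at 45.4, 10.5 and 11.8. Replicate 1 was 4.33-fold above replicate 2 and 3.84-fold above replicate 3, a mean log2 ratio of 2.03. Cebpb was the only one of the 5 members with enough counts that lay at least 2-fold above both other libraries, and 0 of 5 lay at least 2-fold below both, although Cebpa did so in alignment-based TPM. Over all 14571 genes of at least 10 mean counts, 5.57% lay above by this rule and 3.68% below, and among 11026 protein-coding genes 3.28% lay above and 2.50% below. A share of 98.4% of the tested genes had a lower ratio than Cebpb. By the same rule 0 of 5 members stood out in replicate 2, where 0.426% of all genes lay above and 1.42% below, or in replicate 3, where 0.789% lay above and 1.11% below. The contrast sets 1 library against 2 of the same condition, so it is a description with no test, and in bulk RNA fewer cells of a type and less RNA per cell cannot be told apart.

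The gene that overlaps Cebpb was also highest in replicate 1. Tmem189, a membrane protein gene on the opposite strand, had TPM of 52.74, 31.09 and 27.02, a ratio of 1.81-fold. Cebpb and Tmem189 counts were fractional in replicates 1 and 3, yet their sums were whole numbers within 0.02 counts in all 3 libraries, at 1154, 850 and 843. The counting thus divided reads between these genes although they lie on opposite strands. Cebpb held 40.2%, 22.0% and 23.9% of the summed counts. With both genes taken as 1, replicate 1 was 2.33-fold above the others, 2.37-fold over replicate 2 and 2.29-fold over replicate 3. In read-based counts, which the authors made without alignment, and with the same library factors, the summed genes were 2.06-fold above, 2.14-fold over replicate 2 and 1.99-fold over replicate 3, so the sum was no longer at least 2-fold above both. The long noncoding gene A530013C23Rik, 759 bases beyond Cebpb on the same strand, had a ratio of 2.04-fold from 43, 40 and 32 counts.

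**Figure D1:**
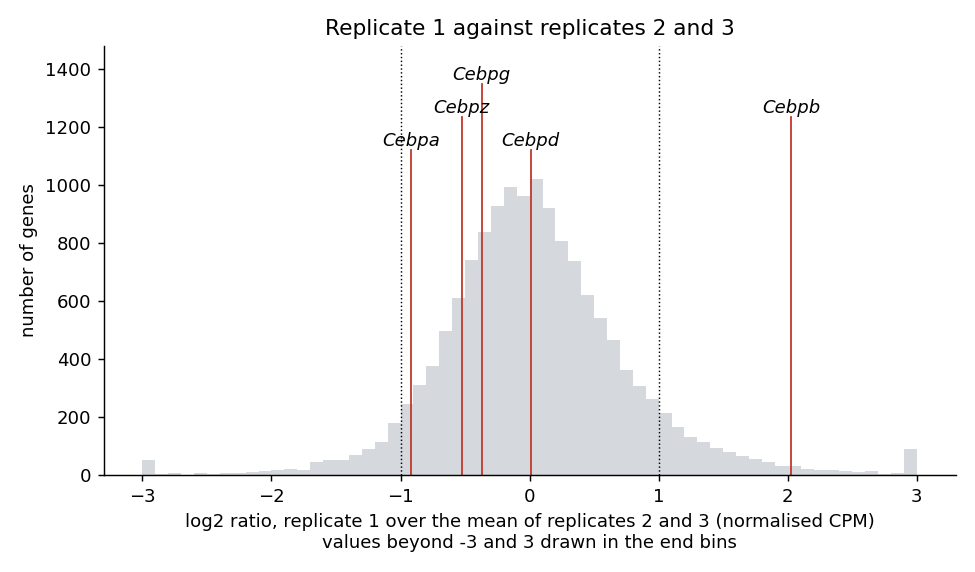
Histogram of the log2 ratio of replicate 1 over the mean of replicates 2 and 3 in normalised CPM, for 14571 genes in bins along the horizontal axis, with red lines for the C/EBP genes and dotted lines at 2-fold. Cebpb lies at 2.03 in the right tail, while Cebpd lies at the centre and Cebpg, Cebpz and Cebpa to its left.

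Cebpd, the other activator of inflammatory genes, was the steadiest member. Its TPM was 4.14, 5.70 and 5.23, from 183, 309 and 314 expected counts (mean 5.02 ± 0.80, SD, n = 3). In normalised CPM it stood at 17.9, 17.3 and 18.4, and the log2 ratio of replicate 1 was 0.0073. The SD of its log2 CPM was 0.044, and 2.24% of the tested genes had a smaller one. Counts of Cebpd and Spidr were likewise fractional in all 3 libraries and whole when summed, at 336, 658 and 554, and the Cebpd share was 54.3%, 47.0% and 56.7%. Spidr, a DNA repair gene, had a log2 ratio of -0.14. Cebpb and Cebpd thus both share reads with a gene on the other strand. Of the 5 members tested, Cebpb had the largest spread between libraries and Cebpd the smallest. The part of shared reads in these spreads was not tested.

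Cebpa, which directs myeloid precursors, was low and lowest in replicate 1. Its TPM was 0.48, 1.23 and 1.22, from only 14, 42 and 50 counts (mean 0.98 ± 0.43, SD, n = 3). The deposited interval of replicate 1, 0.294 to 0.816, lay below those of replicate 2, 0.844 to 1.57, and replicate 3, 0.889 to 1.56. These bounds are not corrected for the lower TPM of the median gene in replicate 1, a log2 ratio of -0.38. In normalised CPM the values were 1.37, 2.35 and 2.92, a mean log2 ratio of -0.92, or 1.89-fold lower. Replicate 1 was past 2-fold lower against replicate 3, at -1.08, and not against replicate 2, at -0.76. A share of 6.68% of tested genes had a lower ratio, so Cebpa lay on the other side of the distribution from Cebpb.

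Cebpe, the late granulocyte factor, was listed at 0 counts in the alignment-based tables of all 3 libraries. A count of 0 allows up to 3 counts, which equal TPM of 0.224, 0.196 and 0.176 in replicates 1, 2 and 3, for counting error only. The read-based table gave it 2, 2 and 0 counts. Its neighbour Slc7a8, an amino acid transporter gene 10035 bases away, had TPM of 37.61, 43.26 and 25.56. Cebpe was therefore not detectable at this depth by the alignment-based count, beside granulocyte genes such as Elane that were also listed at 0.

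Cebpg, the dimer partner without activation domains, had the highest mean level of the family. Its TPM was 16.03, 25.29 and 18.53, from 332, 811 and 666 counts (mean 19.95 ± 4.79, SD, n = 3). In normalised CPM the values were 32.5, 45.3 and 38.9 and the log2 ratio was -0.37, with replicate 1 lowest. Cebpz, the ribosome assembly gene, had TPM of 5.49, 8.73 and 5.71 from 122, 302 and 300 counts (mean 6.64 ± 1.81, SD, n = 3). Its normalised CPM was 11.9, 16.9 and 17.5, a log2 ratio of -0.53. Neither gene reached 2-fold against any library. The neighbours Pepd, next to Cebpg, and Ndufaf7, next to Cebpz, had log2 ratios of -0.05 and -0.07.

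**Figure D2:**
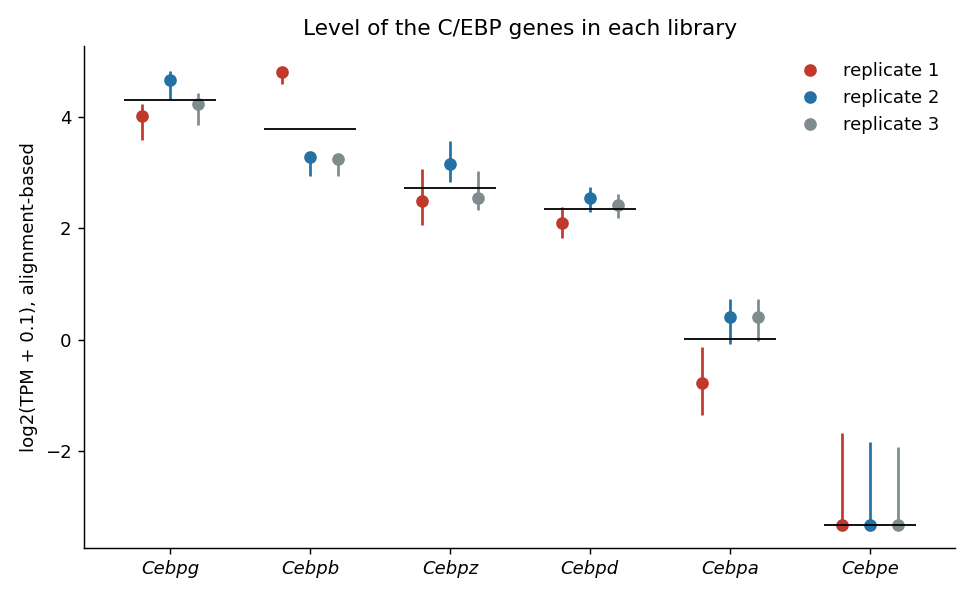
Level of each C/EBP gene on the vertical axis as log2(TPM + 0.1) in replicates 1, 2 and 3 (red, blue and grey points), with the interval deposited by the authors as a vertical line and the mean of the 3 points as a black bar. Replicate 1 lies above the others for Cebpb and below them for the other 4 detected genes, and Cebpe sits at 0 TPM in each library.

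By mean TPM the order was Cebpg, Cebpb, Cebpz, Cebpd, Cebpa and Cebpe. Against 9245 protein-coding genes of at least 1 TPM in every library, whose median level was 12.1 TPM, Cebpg exceeded 64.8%, Cebpb 57.8%, Cebpz 32.4% and Cebpd 24.98%. Cebpb came first in replicate 1 and Cebpg in replicates 2 and 3, and the rest of the order was the same in all libraries. Neighbours were compared within libraries on log2(TPM + 0.1) by an exact sign-flip test, two-sided, over 5 pairs, where 3 libraries allow no p below 0.25. The pairs were taken from the order of the same TPM values, so the direction of each mean difference is largely given by that choice. Cebpg exceeded Cebpb by 0.52 ± 1.16 (SD, n = 3; 2 of 3 libraries; exact p = 0.5, adjusted 0.5), less than its spread. Cebpb exceeded Cebpz by 1.06 ± 1.14, which is also within its spread although the sign was the same in 3 of 3 libraries. Cebpz exceeded Cebpd by 0.38 ± 0.24 and Cebpd exceeded Cebpa by 2.34 ± 0.47, each in 3 of 3 libraries and beyond 1 SD. For these pairs and for Cebpa over Cebpe the exact p was 0.25, the smallest the design allows, and 0.3125 after Benjamini-Hochberg adjustment. The deposited lower bound of Cebpa lay above the upper bound of Cebpe in each library.

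The read-based quantification, made by the authors from the same reads, gave Cebpb 25.3, 9.84 and 9.57 TPM and kept replicate 1 far above the others. It changed the place of Cebpz, which stood at 11.7, 20.2 and 21.9 TPM, 2.64-fold above the alignment-based values on the log2(TPM + 0.1) scale and more than 2-fold above them in each library. Of 13667 genes with a mean TPM of at least 1, 11.8% were at least 2-fold above in all libraries and 0.644% below, and the median gene was 0.40 higher on the log2 scale. Cebpb differed by -0.14, 0.03 and 0.03 on the log2 scale in replicates 1, 2 and 3, and Cebpg by 0.18, -0.27 and 0.06. The mean log2 differences of Cebpd and Cebpa were -0.43 and -0.33, under 2-fold. By read-based TPM Cebpz exceeded Cebpb in replicates 2 and 3 and was the highest member in replicate 3.

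**Figure D3:**
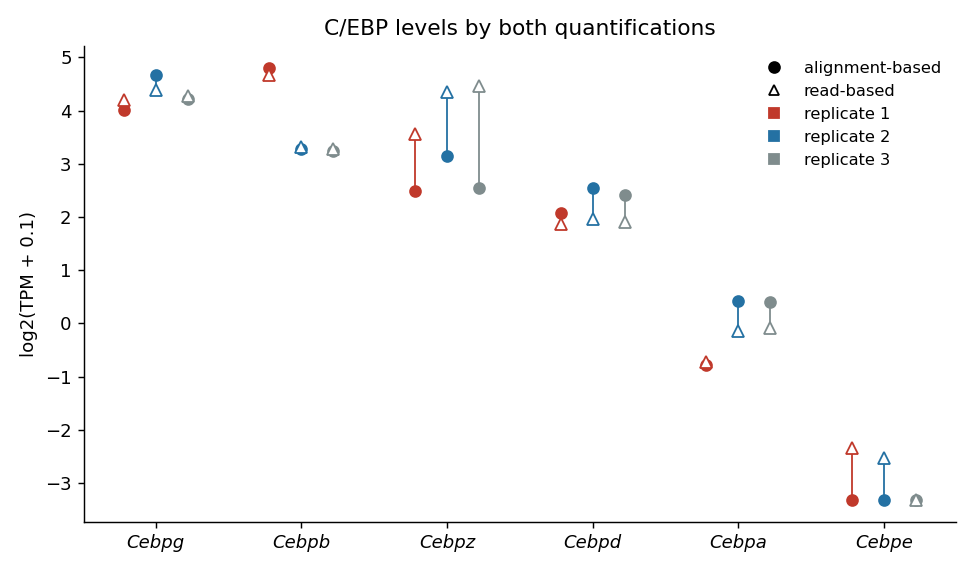
Level of each C/EBP gene as log2(TPM + 0.1) in the alignment-based (filled circles) and read-based (open triangles) tables, by library colour, with a line joining the pair of values of a library. The lines are longest for Cebpz, at 5.49, 8.73 and 5.71 TPM alignment-based and 11.7, 20.2 and 21.9 read-based, and very short for Cebpb.

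The transcripts of Cebpz entered counts and TPM in different proportions. Cebpz-201, the coding form of 4070 bases and 16 exons, held 90.7% ± 1.76 (SD, n = 3) of the alignment-based counts of Cebpz and 56.0% ± 16.6 of its TPM. Cebpz-205, a retained-intron form of 454 bases, had 1, 5 and 1 alignment-based counts but 36.2, 84.7 and 104 read-based counts. It made up 60.8% ± 8.53 of read-based Cebpz TPM, and the coding form 15.2% ± 1.82. The effective length of Cebpz, which sets how counts become TPM, was 1814, 2223 and 3054 bases in replicates 1, 2 and 3, so similar counts in replicates 2 and 3 gave TPM of 8.73 and 5.71.

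Cebpg showed the same pattern with a short form. Cebpg-202, the coding form of 4709 bases, held 85.4% ± 3.18 of the alignment-based counts and 37.2% ± 5.92 of the TPM (SD, n = 3). Cebpg-204, a processed transcript of 399 bases, had 29, 26 and 23 counts, 5.13% ± 3.12 of all, and 49.5% ± 8.35 of the TPM. The top place of Cebpg by TPM therefore rests on fewer than 30 counts per library in that short form for much of its value. Cebpg-203, a retained intron of 1610 bases, held 9.48% ± 1.58 of counts. Cebpg-201, the shorter coding form, had 0 alignment-based counts in each library and 82.7, 37.1 and 60.2 read-based counts.

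The remaining genes were simple. Cebpb has 1 transcript, from which its protein forms arise by alternative start codons, so RNA counts cannot tell them apart. Cebpd-202, a noncoding form of 430 bases, was listed at 0 in both quantifications, leaving all of the gene to the single-exon form. For Cebpa, the single-exon Cebpa-201 held 83.8% ± 16.6 of counts, and Cebpa-202 had 2.17, 13.9 and 0 counts.

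**Figure D4:**
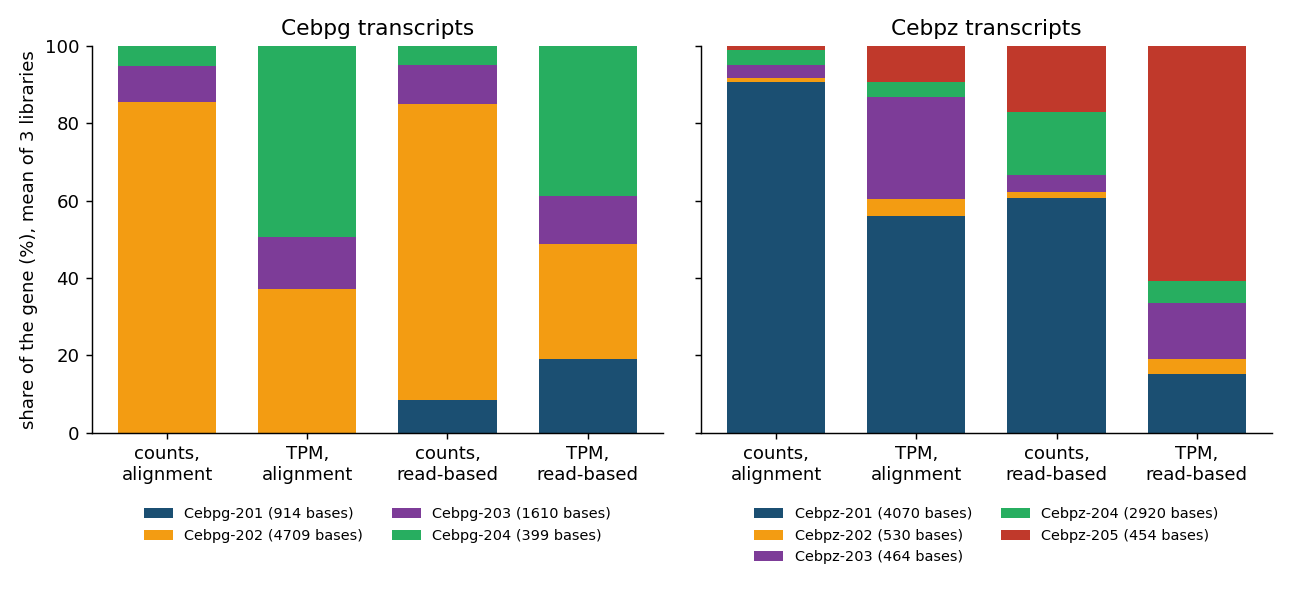
Stacked bars of the share of each transcript of Cebpg (left) and Cebpz (right) in the counts and TPM of its gene, in percent as the mean of 3 libraries, for both quantifications. The short forms Cebpg-204 and Cebpz-205 take 49.5% of alignment-based Cebpg TPM and 60.8% of read-based Cebpz TPM, against 5.13% and 17.1% of the counts.

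Over protein-coding genes, the replicate 1 ratio differed with gene structure and base composition. The median log2 ratio was -0.14 over 236 genes with only single-exon transcripts, as for Cebpb. Of these, 6.36% lay at least 2-fold above and 9.75% below. The median was 0.02 over 9231 genes with only multi-exon transcripts, as for Cebpz. Cebpa, Cebpd and Cebpg have both kinds, in a class of 1559 genes with a median of -0.17, 1.92% above and 2.69% below. By effective length the median was 0.20 over 1682 genes of the shortest class, 7.79% of them above. It was -0.0059 over 3689 genes of the next class, which holds Cebpb, and -0.072 and -0.078 in the longer ones. By GC content of the longest transcript the median ran from -0.35 below 40% to 0.18 between 55% and 65%. Cebpg and Cebpz, at 43.3% and 43.4% GC, fall in a class of 2297 genes with a median of -0.19, and their ratios were -0.37 and -0.53. Cebpd is at 51.6% GC, in a class with a median of 0.10, and its ratio was 0.0073. Cebpa, at 62.6%, had a ratio of -0.92 and is in a class of 359 genes with a median of 0.18, of which 2.23% lay below. Cebpb is the richest at 67.2% GC, in a class of only 27 genes with a median of -0.11, where 3 lay above and 3 below. The part of gene structure, length, GC content, RNA input or depth in the ratios was not tested.

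The genes whose profile over the 3 libraries was nearest to a member were found by Euclidean distance of centred log2 CPM among 9829 or 9830 protein-coding genes. For Cebpb these were Mrpl54, Atp5k and Ccdc194, with ratios of 3.96-fold, 4.28-fold and 4.12-fold, and only 16 genes lay within a distance of 0.25. Mrpl54 and Atp5k encode a mitochondrial ribosomal protein and an ATP synthase subunit. For Cebpa they were Carf, Tsr1 and Dtwd1, with 437 genes within that distance. Cebpd was nearest to Rplp0, Cenpc1 and Nck2 (2935 genes within it). Cebpg had 1864 genes within it, Mbtps2 and Cep250 among the nearest. Cebpz was nearest to Dicer1, Rcan3 and Prkab2 (1916 genes). With 3 libraries these distances are descriptions, and the profile of Cebpb was the rarest of the family by this count.

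Other genes of the C/EBP network were read from lists of partners, regulators and targets by the same rule of 2-fold against both libraries. Of 24 bZIP partner and related factors, 22 had enough counts, 5 lay above in replicate 1 and 0 below, beside 5.57% and 3.68% of all genes, with a median log2 ratio of 0.46 against -0.0006 over all 14571 genes. The 5 were Batf, Batf2, Ddit3, Atf5 and Nfil3, of which all but Batf2 are named after their values were seen. Batf2, a BATF-type partner of other bZIP factors, had the largest ratio, with TPM of 61.22, 34.50 and 31.72. Ddit3, which encodes the C/EBP-type stress factor CHOP, had TPM of 44.50, 27.14 and 22.05, a ratio of 2.66-fold. Nfe2l2, the oxidative stress factor, was the highest of the list at 105, 115 and 92.4 TPM, and Fosl1, an AP-1 subunit, was listed at 0.

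Of 17 modifiers and upstream regulators of C/EBP proteins, 16 had enough counts, with a median of 0.11. Of these, 0 lay 2-fold above or below, beside 5.57% and 3.68% of all genes. Cop1, the ubiquitin ligase that with Tribbles proteins marks C/EBP-alpha for degradation, was the highest at 122, 208 and 149 TPM. Trib3, with the largest ratio of the list at 1.78-fold, had TPM of 2.15, 1.20 and 0.75, and Trib2 was listed at 0.

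Of 8 myeloid factors that act with C/EBP proteins, 1 lay above and 1 below, beside 5.57% and 3.68% of all genes, and the median was 0.66. Spi1, which encodes the macrophage factor PU.1, had TPM of 148, 75.5 and 57.2 and a ratio of 1.89-fold. Klf4, a monocyte factor, was the 1 above, at 3.96-fold from TPM of 0.88, 0.32 and 0.25. Myb, a factor of immature and dividing precursors, was the 1 below, with TPM of 0.80, 4.30 and 4.81 and a ratio 4.43-fold lower in replicate 1.

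Of 20 inflammatory targets of C/EBP-beta and C/EBP-delta, 16 had enough counts, 1 lay above and 0 below. A positive ratio was found for 15, with a median of 0.70 against -0.0006 over all tested genes. Macrophage markers leaned the same way, with 10 of 12 positive and a median of 0.40. Ccl5, a chemokine gene, was the highest at 1465, 1258 and 1178 TPM. Ccl3, another chemokine gene, was the 1 above, at 231, 136 and 134 TPM and 2.65-fold. Hp, the acute-phase haptoglobin gene, had 0, 1 and 0 counts. The 1 of 16 above stands beside 5.57% of all genes and 3.28% of protein-coding genes. The median TPM of all 20 genes, including those with too few counts for a ratio, was 15.2, 13.9 and 18.1, highest in replicate 3. Their summed TPM was 2957, 2845 and 2362, highest in replicate 1, so the direction in TPM depended on the summary used. Whether the targets follow Cebpb was not tested.

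Of 18 myeloid and granulocytic targets of C/EBP-alpha and C/EBP-epsilon, 7 had enough counts, with a median of 0.58. Of these, 0 lay above or below, beside 5.57% and 3.68% of all genes. Only 6 reached a TPM of 1 in every library. Csf2ra, a receptor chain for the growth factor GM-CSF, was the highest at 365, 317 and 319 TPM, and Ctsg, the granule protease cathepsin G, was listed at 0. Lcn2, the iron-binding lipocalin, had the largest ratio at 2.60-fold from TPM of 4.65, 2.28 and 3.38. Lcn2 also stands in the inflammatory list.

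Of 17 genes listed as acting with Cebpz, most of them nucleolar or ribosome assembly genes, all had enough counts, 0 lay above and 2 below. The list also holds the RNA methyltransferase genes Mettl3 and Mettl14, at log2 ratios of -0.39 and -0.32, named here for what they encode. A positive ratio was found for 0 of 17, with a median of -0.54 against -0.0006 over all tested genes. The ratio of Cebpz itself was -0.53. Utp20, a processing factor of the small ribosomal subunit, had TPM of 3.50, 8.78 and 11.67, a ratio 3.06-fold lower in replicate 1. Rrp12, another assembly factor, had TPM of 0.51, 1.73 and 1.37 and was 2.29-fold lower. Nop56, a core protein of small nucleolar particles, was the highest of the list at 20.39, 47.22 and 47.86 TPM, 1.85-fold lower. The share below, 2 of 17, stands beside 3.68% of all genes and 2.50% of protein-coding genes, and no test of the list was made.

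**Figure D5:**
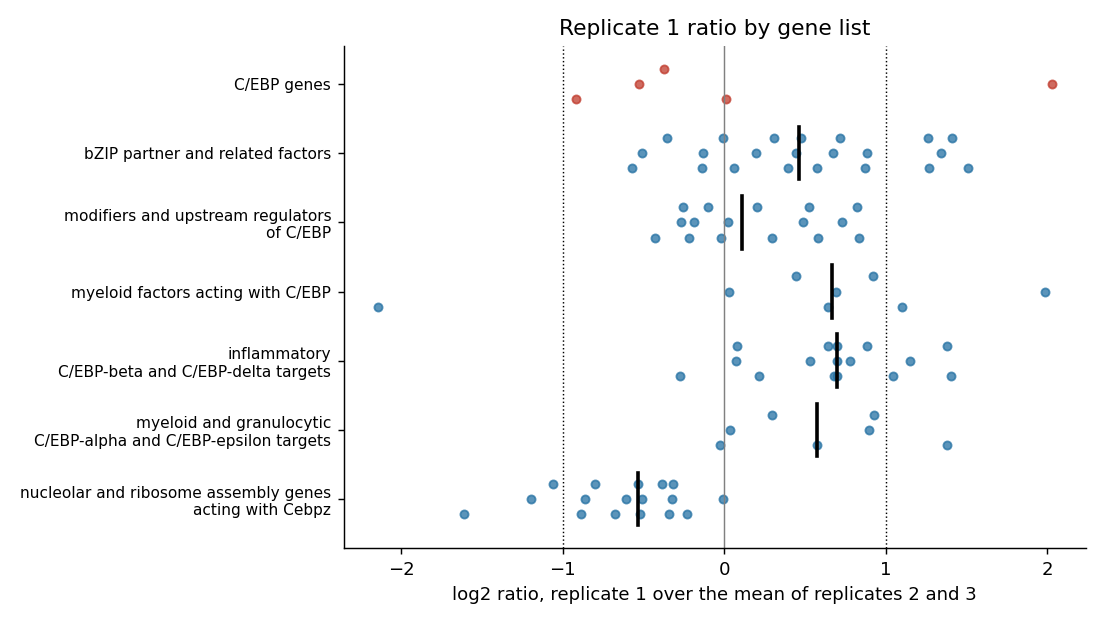
Log2 ratio of replicate 1 over the mean of replicates 2 and 3 for the C/EBP genes (red) and for each gene of 6 lists (blue), with black bars at list medians and dotted lines at 2-fold against the mean. All 17 genes of the list acting with Cebpz, most of them nucleolar, lie at or left of 0 with a median of -0.54. The inflammatory targets have a median of 0.70.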

How the data were processed

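Per the file headers and the deposited notes, the authors made a gene table and a transcript table of expected counts and TPM per library from transcriptome alignments (called alignment-based) and a transcript table of estimated counts and TPM from the reads directly (read-based), on mm10 with GENCODE M21. The gene table also holds effective lengths and interval bounds of TPM. Program versions and the strand setting: not given in the sources used here. Intervals and floors cover counting or estimation error only.

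Members and lists were chosen with earlier results of these data known. Rows were matched by identifier, giving 55536 of 81881 gene rows. Expected counts were rounded and normalised by TMM in edgeR 4.0.16 (R 4.3.3) over genes of mean count at least 10, with a prior count of 0.5 in log2 CPM. A gene lay above or below when replicate 1 was at least 2-fold from both other libraries. Read-based TPM was summed per gene. Levels used a pseudocount of 0.1. No differential test was possible with 1 condition, and the order of members was tested with an exact sign-flip test in scipy 1.17.1. Named genes were all members, the highest, lowest and largest-ratio gene of each list, the 3 nearest profiles and the adjacent or overlapping genes, of which those with few counts are left out and some are not reported here. GC classes, sums of overlapping genes and TPM centred on the median gene were added once the values had been seen. Scripts were tested on simulated counts.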

Additional observations from a re-analysis of the deposited data

How the results depend on the processing

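Replicate 1 stayed at least 2-fold above both other libraries for Cebpb in every alternative run except the read-based counts summed with Tmem189, where the log2 ratio was 1.04 and the fold over replicate 3 was 1.99. Apart from leaving out a library, 39 alternatives were run for the 5 ratios, of which 21 moved by less than the spread between replicates 2 and 3 and 18 by more. Alignment-based counts summed with the gene on the other strand gave a log2 ratio of 1.22 for Cebpb and -0.070 for Cebpd. In alignment-based TPM the log2 ratios were -1.19 for Cebpa, then at least 2-fold below both libraries, 1.55 for Cebpb, -0.39 for Cebpd and -0.36 for Cebpz. In read-based TPM they were -0.61 for Cebpa, 1.38 for Cebpb, -0.073 for Cebpd, -0.15 for Cebpg and -0.84 for Cebpz. TPM moved the median gene by -0.38 and -0.30 in these tables. Centred on it, alignment-based TPM gave -0.049 for Cebpg and 0.024 for Cebpz. Centred read-based TPM gave -0.31 for Cebpa, 1.67 for Cebpb, 0.22 for Cebpd, 0.15 for Cebpg and -0.54 for Cebpz. The ratio of Cebpg was thus positive only in centred read-based TPM. That of Cebpz was positive only in centred alignment-based TPM, at a value small beside the SD of 0.43 of its differences from replicates 2 and 3. The cause was not tested. The counts of 812 genes above and 536 below became 268 and 1537 in alignment-based TPM, 239 and 1024 in read-based TPM, 3381 and 1608 with no count filter, 321 and 239 with a mean count of at least 50, and 1900 and 1700 at a fold of 1.5. Without replicate 2 or 3 they ran from 1315 to 1399 above and 837 to 941 below, since 1 library is then enough. Centred read-based TPM gave 490 above. Rescaling TPM to genes with 200 or more bases of effective length gave mean levels of 2.35 for Cebpa, 41.9 for Cebpb, 12.4 for Cebpd, 49.0 for Cebpg and 16.3 for Cebpz. Read-based means were 3.66 for Cebpd, 0.057 for Cebpe and 18.0 for Cebpz, and the difference of Cebpb over Cebpz turned to -0.37. No paired analysis was possible because the 3 libraries are of 1 condition. Depth limits Cebpa, with 14 to 50 counts, and Cebpe, with 0.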
